A study of Mus musculus with 12 samples.

Results

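Genes of the hypoxia response governed by the hypoxia-inducible factor (HIF) were followed in mouse embryonic fibroblasts with and without HtrA2, in the presence or absence of rotenone. The set was chosen by name: Hif1a, Vegfa, Kdm3a, Bnip3, Egln1, Egln3, Ankrd37, P4ha1, P4ha2 and Adm, each through every probe set whose platform annotation gave exactly that 1 symbol. Earlier results of these data were known when the set was chosen, so its shares beside all genes are no independent evidence. Of the 10 named genes, 9 were measured, by 16 of the 22626 probe sets tested. Ankrd37, which codes for a small ankyrin-repeat protein, was the symbol of no probe set and its level was not analysed here. The 9 genes are among 12393 genes on the array.

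The fibroblasts were primary cells, grown directly from HtrA2 knockout (KO) or wild-type (WT) mice and used at passage 4. HtrA2, also called Omi, is a protease found between the inner and outer membranes of mitochondria, and rotenone blocks electron transfer by respiratory complex I. There were 4 groups of 3 arrays: KO cells given 1 µM rotenone for 4 h, KO cells given vehicle for 4 h, WT cells given 1 µM rotenone for 4 h and WT cells given vehicle for 4 h. The arrays carry replicate numbers 1 to 3 within each group. How many mice or embryos gave the cells is not stated in the labels, nor whether the replicates were separate cultures, so each p-value reflects the scatter of these arrays alone, which could be technical. The design asks which genes rotenone regulates differently in KO cells than in WT cells.

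HIF is a pair of proteins. The alpha subunit, encoded by Hif1a, is made continuously, but when oxygen is present the prolyl hydroxylases, among them those encoded by Egln1 and Egln3, mark it for the VHL ubiquitin ligase and it is destroyed. When oxygen is scarce the subunit persists, pairs with ARNT and binds hypoxia response elements, short DNA sites built around a core of A or G followed by CGTG. Because the alpha subunit is controlled mainly as a protein, the mRNA of Hif1a does not report HIF activity, while the mRNAs of its target genes are the usual readout. Complex I inhibitors such as rotenone lower the oxygen use of cells.

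The promoters of the genes described here were read from RefSeq (build GRCm38.p6), as windows of 300 bases from 250 before to 50 after an annotated transcription start, and searched on both strands for ACGTG and GCGTG. The core starting with A was found in 19.6% of all 32851 promoter windows, the core starting with G in 32.4% and either in 43.8%. All 10 named genes had at least 1 window with a match, as had 46.7% of all 27025 genes with a window. By window, 10 of their 13 held a match, and Vegfa had one only at its second annotated start. By count, the Bnip3 window held 5 matches, those of Ankrd37 and P4ha2 held 4, those of Hif1a and P4ha1 held 3 and those of Egln1 and Adm held 2. In the whole table, 1.66% of windows held 5 or more matches and 8.93% held 3 or more. A match is a run of letters, not evidence of binding, and its absence concerns this window alone.

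The windows of 6 genes are shown because their mRNAs carry the results that follow: Bnip3, Kdm3a, Vegfa and Hif1a for rotenone, and Egln3 and Adm for the replicate number. Each is written from 5′ to 3′ on the strand of the gene, with every base of a match in capitals, so that a match on the opposite strand appears as its reverse complement. In Bnip3 and in Hif1a a match to the core starting with A on one strand overlaps one on the other, in a palindrome. The windows lie at chr7:138909457-138909756 on the minus strand (Bnip3), chr6:71632868-71633167 on the minus strand (Kdm3a), chr17:46032328-46032627 on the minus strand (Vegfa), chr12:73907617-73907916 on the plus strand (Hif1a), chr12:54203825-54204124 on the minus strand (Egln3) and chr7:110627407-110627706 on the plus strand (Adm).
Bnip3 promoter: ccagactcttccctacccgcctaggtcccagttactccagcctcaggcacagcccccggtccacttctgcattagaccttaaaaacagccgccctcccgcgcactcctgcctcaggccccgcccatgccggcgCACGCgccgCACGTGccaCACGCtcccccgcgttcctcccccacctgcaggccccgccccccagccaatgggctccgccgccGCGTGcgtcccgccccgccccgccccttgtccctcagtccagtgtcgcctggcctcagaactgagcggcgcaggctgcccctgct
Kdm3a promoter: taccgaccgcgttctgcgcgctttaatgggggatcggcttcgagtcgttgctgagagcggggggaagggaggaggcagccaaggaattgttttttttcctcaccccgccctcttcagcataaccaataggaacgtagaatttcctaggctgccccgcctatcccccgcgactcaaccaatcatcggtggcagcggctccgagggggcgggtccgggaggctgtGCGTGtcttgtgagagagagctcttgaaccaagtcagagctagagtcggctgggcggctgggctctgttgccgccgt
Vegfa promoter: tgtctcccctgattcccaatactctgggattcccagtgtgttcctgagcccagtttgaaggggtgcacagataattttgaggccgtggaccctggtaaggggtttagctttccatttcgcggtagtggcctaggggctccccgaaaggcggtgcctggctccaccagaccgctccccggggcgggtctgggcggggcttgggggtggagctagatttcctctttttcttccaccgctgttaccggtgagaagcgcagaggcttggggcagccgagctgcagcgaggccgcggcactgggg
Hif1a promoter: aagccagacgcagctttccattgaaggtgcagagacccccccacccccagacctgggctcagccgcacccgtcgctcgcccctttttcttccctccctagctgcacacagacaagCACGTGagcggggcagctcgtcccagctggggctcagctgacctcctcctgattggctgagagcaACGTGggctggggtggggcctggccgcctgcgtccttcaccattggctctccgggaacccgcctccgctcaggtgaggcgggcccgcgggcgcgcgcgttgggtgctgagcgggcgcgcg
Egln3 promoter: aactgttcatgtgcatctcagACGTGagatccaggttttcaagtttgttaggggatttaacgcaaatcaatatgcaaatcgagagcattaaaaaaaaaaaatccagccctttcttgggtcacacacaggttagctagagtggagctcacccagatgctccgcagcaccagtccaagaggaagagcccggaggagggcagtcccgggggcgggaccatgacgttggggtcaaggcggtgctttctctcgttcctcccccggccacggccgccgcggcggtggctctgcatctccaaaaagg
Adm promoter: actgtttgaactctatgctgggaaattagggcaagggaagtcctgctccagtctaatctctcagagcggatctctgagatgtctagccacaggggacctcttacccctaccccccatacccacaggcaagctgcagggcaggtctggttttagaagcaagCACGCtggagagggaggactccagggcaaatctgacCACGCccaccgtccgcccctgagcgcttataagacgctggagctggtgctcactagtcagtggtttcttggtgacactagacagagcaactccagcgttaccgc

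In the Bnip3 window, 4 of the 5 matches fall between 117 and 99 bases upstream of the start, and the remaining one begins 35 bases upstream. The Hif1a window has its overlapping pair about 135 bases upstream and a further match 70 bases upstream. The Kdm3a window has a single match, 27 bases upstream, and 2 further annotated Kdm3a starts have none. The Vegfa window shown has no match. The window of a second annotated start, downstream of the first at chr17:46025114-46025413, holds 2, at 218 and 211 bases upstream of that second start. Whether DNA at that place serves as a promoter was not tested. The Egln3 match begins 229 bases upstream, and both Adm matches, 90 and 54 bases upstream, lie on the opposite strand.

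**Figure D1:**
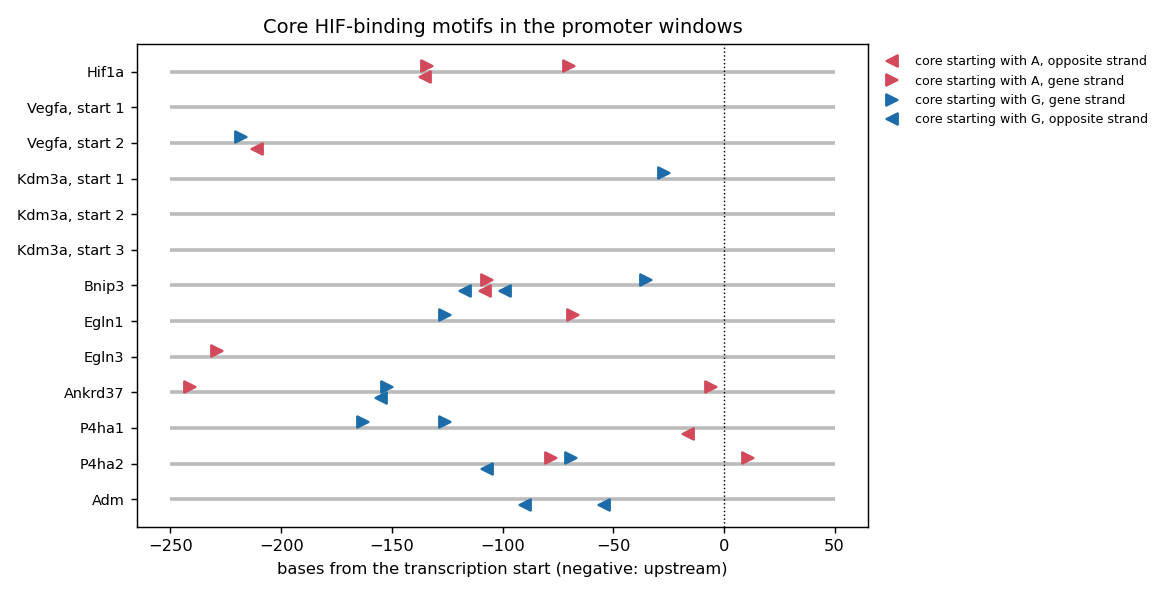
Each horizontal line is a promoter window of a named gene, drawn by distance in bases from the annotated start (dotted line). Triangles mark where a core motif begins, pointing right for the gene's strand and left for the opposite strand, and are red for cores starting with A and blue for cores starting with G. Bnip3 has 5 matches, 4 of them between 117 and 99 bases upstream, while the window of the first Vegfa start and those of 2 of the 3 Kdm3a starts have none.

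All values are log2 levels as deposited, and levels of different HIF probe sets are not set against each other. Genes with several probe sets are described by the one with the highest mean. On the Htra2 probe set with the highest mean, the KO rotenone arrays lay between 7.66 and 7.82, the KO vehicle arrays between 7.57 and 7.87, the WT rotenone arrays between 9.02 and 9.14 and the WT vehicle arrays between 8.83 and 9.32. KO and WT arrays did not overlap. The 3 WT rotenone arrays lay with WT vehicle: the labels call them wild type in the title, source and description but knockout in the genotype field, and they were grouped as WT. The dimmer Htra2 probe set was 0.40 higher in KO than in WT vehicle cells (adjusted p = 1). Array medians ran from 7.53 to 7.58. Cell type markers were placed by the rank of their mean level among all probe sets, a rough guide because probes differ in affinity. All 12 fibroblast markers lay above the 40th percentile, as did 2 of 8 endothelial, 3 of 8 leukocyte and 5 of 8 epithelial markers. In whole-culture RNA, fewer cells of a kind and less RNA per cell cannot be told apart. The 4 arrays numbered 3 stood apart from the other 8: the first principal component held 44.7% of the variance and placed number 3 between 22.6 and 30.9 and the rest between −20.1 and −5.69. Results are therefore given with and without number 3 where they rest on it.

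In all, 4 HIF genes were higher after rotenone in every same-numbered pair of arrays and rose in the fit that has the replicate number as a block: Bnip3, Kdm3a, Vegfa and Hif1a. Their mean rotenone effects over both genotypes were 0.72, 0.57, 0.52 and 0.33 on the log2 scale, or 1.65-, 1.49-, 1.43- and 1.26-fold. In the fit without the block, 0 of the 9 genes passed an adjusted p of 0.05, where 0.218% of all 12393 genes did, and 3 of the 9 had an unadjusted p under 0.05, as did 7.94% of all genes. With the block, 4 of 9 passed, all higher, where 2.47% of all genes passed in either direction and 1.53% passed as higher. The labels do not state that the replicate numbers pair the arrays, so both fits are given throughout. Deviations from the group means correlated in all 18 same-numbered pairs of arrays. For numbers 1 and 2 these correlations (r 0.289 to 0.554) overlapped those of number 1 with number 2 of other groups (−0.0535 to 0.476). The median effect of the 9 genes was 0.29, beside 0.03 over all genes.

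Bnip3 encodes a mitochondrial outer-membrane protein of the BCL2 family that recruits autophagosomes to mitochondria. Its level was 9.73, 9.70 and 11.03 in KO rotenone cells (numbers 1, 2 and 3) and 9.28, 9.22 and 9.87 in KO vehicle cells. In WT cells it was 9.99, 9.60 and 10.96 with rotenone and 9.38, 9.14 and 9.79 with vehicle. Within each number rotenone arrays were the higher, but the groups overlap, since vehicle arrays numbered 3 lie above rotenone arrays numbered 1 and 2 in KO cells and above number 2 in WT cells. The mean rotenone effect was 0.72 (SE 0.27, adjusted p = 0.524) without the block and 0.72 (SE 0.11, adjusted p = 0.00205) with it. Leaving out any 1 array with the block kept the adjusted p between 0.00159 and 0.0112.

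Kdm3a encodes a jumonji demethylase that removes methyl groups from lysine 9 of histone H3. It was measured at 8.40, 8.53 and 8.61 in KO rotenone cells and at 7.99, 8.13 and 8.25 in KO vehicle cells. The WT rotenone arrays gave 8.49, 8.79 and 9.46, and the WT vehicle arrays 8.15, 8.02 and 8.33. Rotenone arrays lay above all vehicle arrays in both genotypes, for this 1 of the 9 genes and for 0.871% of all genes, and the WT rotenone array numbered 3 was the highest of the 12. The mean effect was 0.57 (SE 0.14, adjusted p = 0.182) without the block and had an adjusted p of 0.0042 with it (SE 0.09).

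Vegfa encodes the growth factor that draws new blood vessels to poorly oxygenated tissue. Its level was 10.33, 10.44 and 9.34 in KO rotenone cells and 9.74, 9.89 and 9.06 in KO vehicle cells. It was 10.10, 10.60 and 9.65 in WT rotenone cells and 9.74, 9.71 and 9.22 in WT vehicle cells. Number 3 was the lowest array of each group, and rotenone and vehicle arrays overlapped in both genotypes although each pair moved upward. The mean effect was 0.52 (SE 0.23, adjusted p = 0.616) without the block and reached an adjusted p of 0.00454 with it (SE 0.09). The second Vegfa probe set gave the same mean effect of 0.52, with an adjusted p of 0.714 without the block and 0.00557 with it.

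Hif1a itself was measured at 11.02, 11.08 and 11.41 in KO rotenone cells, against 10.43, 10.87 and 11.32 in KO vehicle cells. In WT cells the values were 10.79, 10.95 and 11.70 with rotenone and 10.59, 10.71 and 11.01 with vehicle. The groups overlapped in both genotypes, and the differences within pairs ran from 0.09 to 0.69. The mean effect of 0.33 had an adjusted p of 0.714 without the block (SE 0.18) and 0.0457 with it (SE 0.08). Leaving out single arrays with the block moved the adjusted p between 0.0229 and 0.183. The call remained without the KO rotenone array numbered 3 or the WT rotenone array numbered 2 and was lost without any of the other 10. The other 3 Hif1a probe sets gave mean effects of 0.17 each, and with the block their adjusted p-values were between 0.204 and 0.511.

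**Figure D2:**
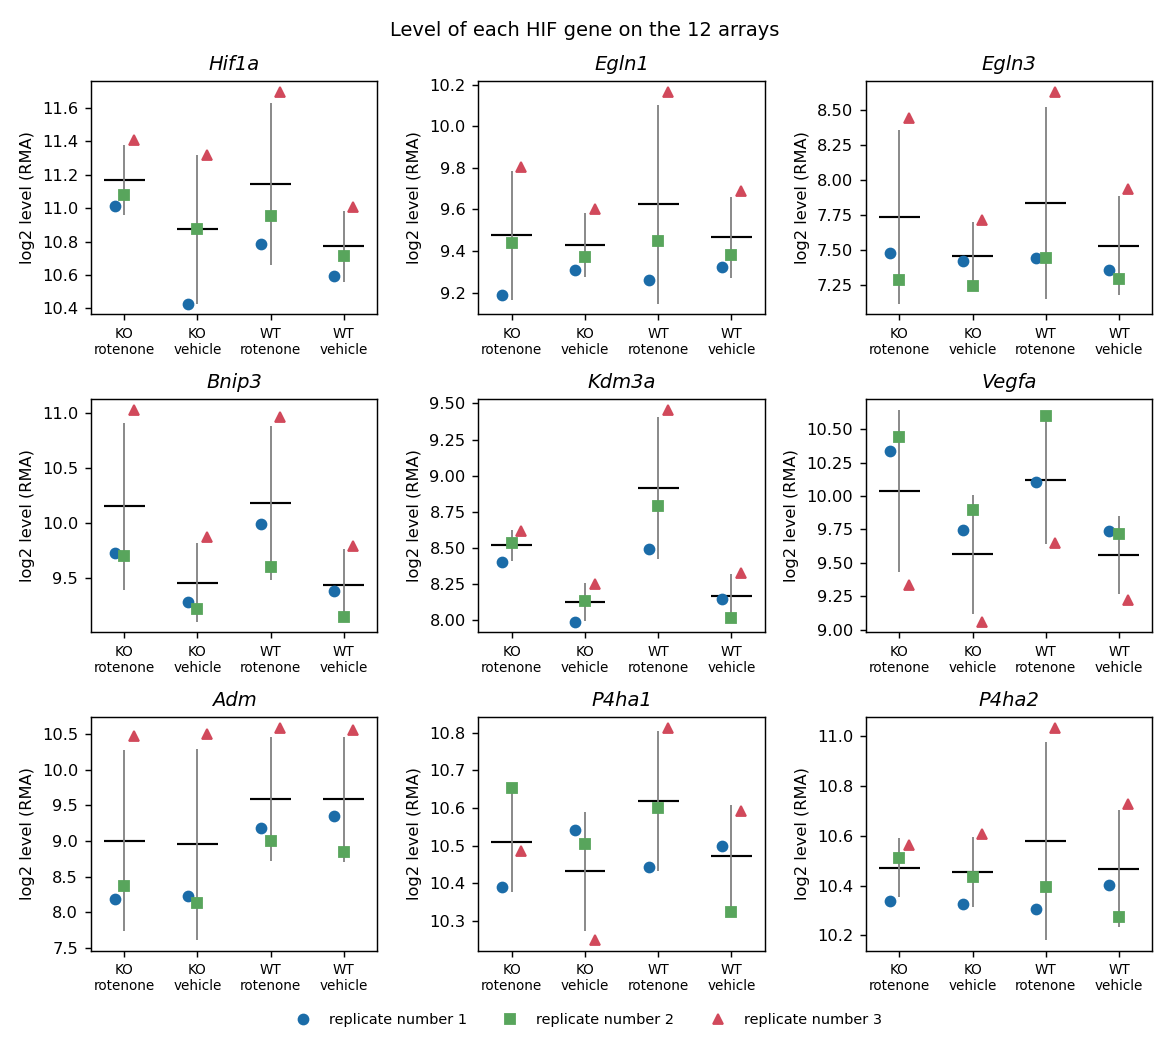
Log2 level of the 9 genes on the 12 arrays, 1 panel a gene with its own axis, grouped as KO rotenone, KO vehicle, WT rotenone and WT vehicle. Blue circles, green squares and red triangles are replicate numbers 1, 2 and 3, black bars are group means and grey lines the SD (n = 3). Number 3 is the highest array of each group for Hif1a, Egln1, Egln3, Bnip3, Kdm3a, Adm and P4ha2 and the lowest for Vegfa.

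The 5 remaining genes did not pass in either fit. Egln3, a prolyl hydroxylase of HIF and also one of its targets, was higher with rotenone in all 6 pairs, but by 0.04 to 0.15 in numbers 1 and 2 and by 0.73 (KO) and 0.70 (WT) in number 3. Its mean effect was 0.29 (SE 0.25, adjusted p = 0.838), with an adjusted p of 0.167 under the block. The second Egln3 probe set was higher in 5 of the 6 pairs. Egln1, the main HIF prolyl hydroxylase of most cells, had pair differences of −0.12, 0.07 and 0.20 in KO cells and −0.07, 0.07 and 0.48 in WT cells, with a mean of 0.10 (95% interval −0.06 to 0.27 with the block).

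Adm encodes adrenomedullin, a vasodilator peptide, and its mean rotenone effect was 0.03 (95% interval −0.24 to 0.29 with the block). P4ha1 and P4ha2 encode alpha subunits of the collagen prolyl 4-hydroxylases, enzymes of the endoplasmic reticulum that are distinct from the HIF hydroxylases. Their mean effects were 0.11 (95% interval −0.07 to 0.30) and 0.06 (−0.11 to 0.24) with the block.

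Of the 9 genes, 5 were higher with rotenone in all 6 same-numbered pairs: Hif1a, Vegfa, Kdm3a, Bnip3 and Egln3. This holds on the probe set with the highest mean. The 3 dimmer Hif1a probe sets were higher in 5, 4 and 6 of the 6 pairs and the dimmer Egln3 probe set in 5. The second Vegfa probe set was higher in all 6. Over all genes, 7.24% were higher in all 6 pairs and 4.91% were lower in all 6, and no HIF gene was lower in all 6. Without number 3, and with the block, the same 4 genes passed as higher: Vegfa by 0.60 (adjusted p = 5.38e-05), Bnip3 by 0.50 (4.07e-04), Kdm3a by 0.48 (6.21e-04) and Hif1a by 0.31 (0.0421). In that fit, 4.74% of all genes passed, 2.81% as higher. Without number 3 and without the block, 3 of 9 passed (Vegfa, Kdm3a and Bnip3), where 2.37% of all genes did. Leaving out number 1 instead, with the block, gave 2 of 9 (Kdm3a and Bnip3), where 0.307% of all genes passed, and leaving out number 2 gave 0 of 9, where 0.218% did.

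**Figure D3:**
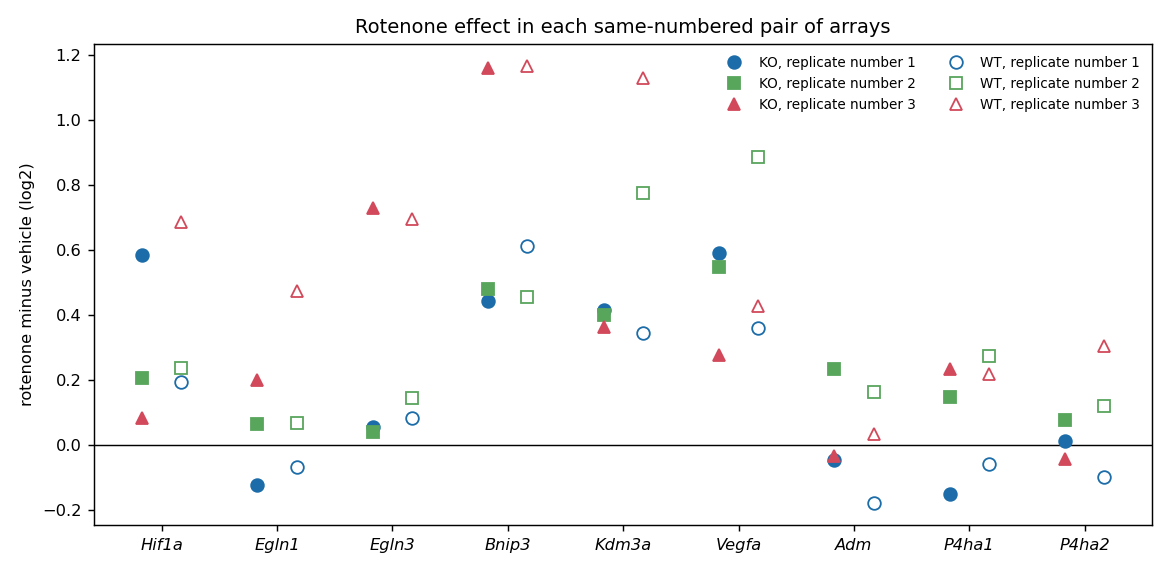
Rotenone minus vehicle on the log2 scale in each of the 6 same-numbered pairs of arrays, for each gene, with KO pairs filled and left and WT pairs open and right. Colour and shape give the replicate number. All 6 points lie above 0 for Hif1a, Egln3, Bnip3, Kdm3a and Vegfa, and both red triangles lie above the other 4 points for Egln1, Egln3 and Bnip3.

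Taken by genotype, no HIF gene passed for rotenone in KO cells, and Kdm3a and Bnip3 passed in WT cells when the replicate number was a block. In KO cells 0 of 9 passed in either fit, where 0.00807% of all genes passed without the block and 0.331% with it. The KO effects were 0.70 for Bnip3 (adjusted p = 0.0816 with the block), 0.47 for Vegfa (0.16), 0.39 for Kdm3a (0.352) and 0.29 for Hif1a (0.489). In WT cells 0 of 9 passed without the block, where 0.00807% of all genes did. With the block 2 of 9 passed, where 0.702% did: Kdm3a by 0.75 (adjusted p = 0.0199) and Bnip3 by 0.75 (0.0381). Vegfa had an effect of 0.56 in WT cells (adjusted p = 0.0541 with the block), and its second probe set one of 0.64 (0.0335). These calls by genotype rested on single arrays. With the block, 0 of 9 passed in WT cells without the WT vehicle array numbered 1 or 2 or the WT rotenone array numbered 2. A count of 1 of 9 was left without the WT rotenone or WT vehicle array numbered 3, the KO rotenone array numbered 2 or the KO vehicle array numbered 1 or 2, and 3 of 9 passed without the KO rotenone array numbered 3. In KO cells 1 of 9 passed without the WT vehicle or WT rotenone array numbered 3 (Bnip3) or without the KO rotenone array numbered 3 (Vegfa). Over all genes, the fits leaving out 1 array with the block called 8 to 136 in WT cells and 8 to 85 in KO cells. Without all of number 3, 3 of 9 passed in WT cells and 1 of 9 in KO cells, where 1.8% and 1.55% of all genes did.

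Passing in WT cells alone is not a difference between genotypes, and the test of that difference found none. The interaction, the rotenone effect in KO cells minus that in WT cells, was called for 0 of 9 HIF genes and for 0 of all 12393 genes by limma, with or without the block (percentage called 0). At an unadjusted p under 0.05 it held for 0 of 9 HIF genes in both fits and for 42 genes without and 141 with the block. Kdm3a had the estimate furthest from 0, −0.36 (95% interval −0.76 to 0.04 with the block), with pair differences of 0.42, 0.40 and 0.37 in KO cells and 0.34, 0.78 and 1.13 in WT cells. For Bnip3 the interaction was −0.05 (−0.50 to 0.40), for Vegfa −0.09 (−0.45 to 0.28) and for Hif1a −0.08 (−0.43 to 0.27).

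KO and WT cells were compared directly under each treatment, and 0 of 9 HIF genes passed in either. Without the block 0.00807% of all genes passed in vehicle and likewise in rotenone, and with it 0.0242% and 0.0565%. At an unadjusted p under 0.05, 0 of 9 HIF genes stood without the block in either treatment, where 1.11% of all genes did in vehicle and 6.0% in rotenone. With the block 1 of 9 stood in vehicle and 2 in rotenone, where 3.32% and 13.7% of all genes did. Apart from Adm, the KO minus WT estimates in vehicle ran from −0.07 (Egln3) to 0.10 (Hif1a). In rotenone, Kdm3a was at −0.40 (95% interval −0.68 to −0.11 with the block, adjusted p = 0.277). In numbers 1, 2 and 3 this difference was −0.09, −0.26 and −0.84, so the estimate leaned on number 3. Kdm3a lies on chromosome 6, as Htra2 does, with 48 protein-coding genes between them. Whether DNA linked to the altered Htra2 allele bears on Kdm3a was not tested.

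The genotype difference of Adm was not alike in the 3 replicate numbers. Its level was 8.19, 8.37 and 10.47 in KO rotenone cells and 9.18, 9.01 and 10.59 in WT rotenone cells. With vehicle it was 8.23, 8.13 and 10.50 in KO cells and 9.36, 8.84 and 10.56 in WT cells. In numbers 1 and 2 the KO arrays were all lower than the WT arrays, whereas in number 3 all 4 arrays lay between 10.47 and 10.59.

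Over all 3 numbers, Adm differed between KO and WT by −0.63 in vehicle (SE 0.75, adjusted p = 1) and by −0.58 in rotenone (SE 0.75, adjusted p = 0.885), and with the block the adjusted p was 0.838 and 0.242. Without number 3, and with the block, Adm was lower in KO cells by −0.92 in vehicle (SE 0.14, adjusted p = 8.39e-05) and by −0.82 in rotenone (SE 0.14, adjusted p = 4.15e-04). That made 1 of 9 HIF genes called in each treatment, where 1.21% and 1.86% of all genes were called. Without number 3 and without the block Adm was also the 1 gene called in each treatment (adjusted p = 0.0162 and 0.0302), where 0.452% and 0.694% of all genes were. The genotype effect on Adm differed between number 3 and numbers 1 and 2 by 0.78 (SE 0.18, adjusted p = 0.0727), and by the same amount with the block (SE 0.17, adjusted p = 0.00824). The same contrast was called for 0 of 9 HIF genes without the block, where 0.775% of all genes were called, and for 1 of 9 with it, where 2.62% were. At an unadjusted p under 0.05 it held for 3 of 9 without the block (12.0% of all genes) and for 4 of 9 with it (15.1%). P4ha1 (−0.39, adjusted p = 0.337), Kdm3a (−0.36, 0.456) and P4ha2 (−0.35, 0.387) had estimates on the other side of 0 from Adm without the block, and none of these 3 was called in either fit. This split by number was noticed in the data before it was tested.

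**Figure D4:**
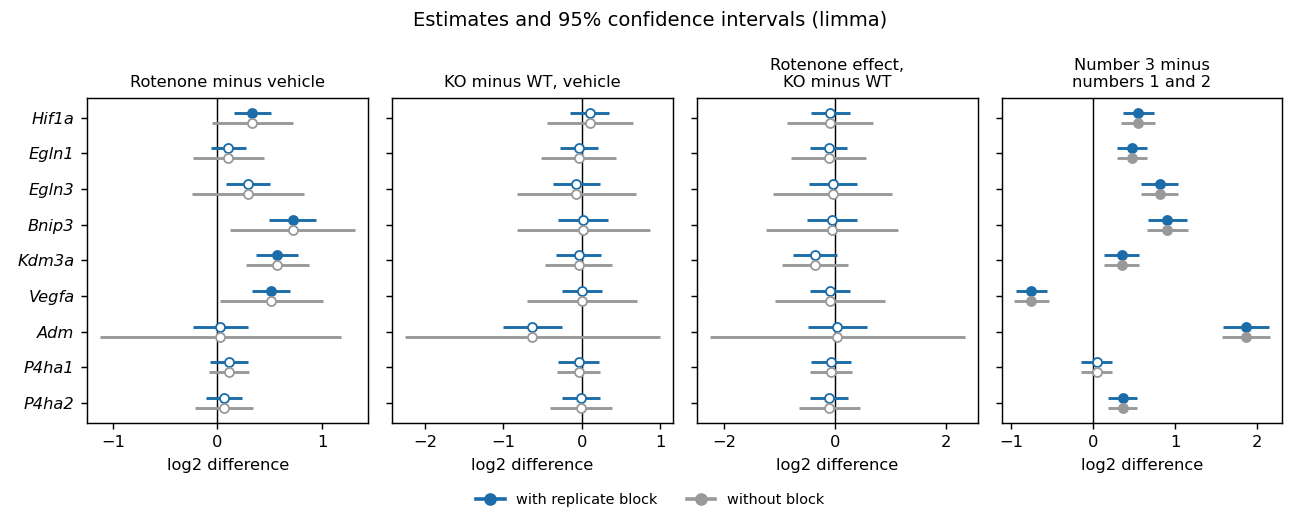
Log2 differences with 95% confidence intervals from limma, in 4 panels: rotenone minus vehicle averaged over genotypes, KO minus WT in vehicle, the rotenone effect in KO minus that in WT, and replicate number 3 minus numbers 1 and 2. Blue is the blocked fit and grey the fit without the block, and filled points have an adjusted p under 0.05. The block narrows the intervals in the first 3 panels, and Bnip3, Kdm3a, Vegfa and Hif1a are filled for rotenone in blue alone.

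More HIF genes passed for the replicate number than for rotenone, in a contrast chosen with number 3 already known to stand apart. Its calls and p-values, here and below, describe these arrays and are no independent evidence. Arrays numbered 3 were set against numbers 1 and 2 with the group in the model, and 8 of the 9 genes passed, 7 higher and 1 lower. Over all genes 22.9% passed, 12.7% as higher and 10.2% as lower. With numbers 1 and 2 fitted apart, 8 of the 9 passed as well, where 24.8% of all genes did. The median difference of the 9 genes was 0.48, beside −0.04 over all genes. The 4 arrays numbered 3 share 1 number and were fitted as separate arrays. The p-values therefore reflect scatter between arrays, not variation from one replicate number to another.

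Adm was higher in number 3 by 1.87 (3.65-fold, SE 0.13, adjusted p = 2.35e-07), and every number 3 array lay above all 8 others. Bnip3 was higher by 0.91 (SE 0.12, adjusted p = 6.61e-05), Egln3 by 0.81 (SE 0.11, adjusted p = 8.07e-05) and Hif1a by 0.55 (SE 0.10, adjusted p = 8.06e-04). Egln1 was higher by 0.48 (adjusted p = 0.00125), P4ha2 by 0.36 (0.00701) and Kdm3a by 0.35 (0.0235). Kdm3a depended on 1 array: without the WT rotenone array numbered 3 its difference was 0.19 (adjusted p = 0.132).

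Vegfa went the other way. It was lower in number 3 by −0.75 (SE 0.10, adjusted p = 6.36e-05), and by −0.95 on the second probe set (adjusted p = 5.75e-06). P4ha1 differed by 0.04 (95% interval −0.15 to 0.23). Probe sets of Hif1a disagreed: 1 of the 3 dimmer ones was higher by 0.52 (adjusted p = 0.00118), another stood at 0.32 (0.0697) and the last at −0.16 (0.0963).

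Marker genes of other cells moved with the replicate number as well. Over all genes 12.7% were higher in number 3 and 10.2% lower, which is the share to set beside the marker counts. Of 8 leukocyte markers, 6 were higher in number 3 and 0 lower, and their mean level per array was 6.97 to 7.05 in number 3, against 6.33 to 6.52 in numbers 1 and 2. Of these 8, Csf1r, Lyz2 and Cd14 sat at the 62.9th, 55.4th and 48.2nd percentiles of mean level, and the other 5, Ptprc and Itgam among them, between the 7.47th and the 34.0th. Epithelial markers were higher for 3 of 8, with array means of 7.21 to 7.52 in number 3, against 6.85 to 7.08 in numbers 1 and 2. Endothelial markers passed for 0 of 8 and their array means overlapped, at 6.28 to 6.67 in number 3 and 6.22 to 6.58 in numbers 1 and 2. Fibroblast markers passed for 2 of 12 as higher and 4 of 12 as lower. Whether such other cells were present, or had any part in the HIF gene values, was not tested. None of the leukocyte, endothelial and epithelial markers passed for rotenone with the block, and 1 of 12 fibroblast markers passed as lower. Over all genes 2.47% passed in that fit.

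For Bnip3, Egln1 and Egln3 both number 3 pairs had larger rotenone differences than the other 4 pairs, as was so for 7.07% of all genes. For Bnip3 they were 1.16 in KO and 1.17 in WT cells, against 0.44 to 0.61 in numbers 1 and 2. The difference in rotenone effect was 0.67 for Bnip3 (SE 0.17, unadjusted p = 0.00107, adjusted p = 0.632) and 0.63 for Egln3 (SE 0.14, unadjusted p = 5.15e-04, adjusted p = 0.447). With the block these adjusted p-values were 0.0911 and 0.105, and neither fit called any of the 9 genes, where 0.0161% of all genes were called without the block and 0.121% with it. The second Egln3 probe set gave 0.17 for the same difference.

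The wider pathway was described through 6 lists of genes around HIF, none of which share a gene with the set above. They were picked with earlier results of these data known, so their counts are no independent evidence. For rotenone without the block, the glucose metabolism list had 1 of 23 measured genes higher and the list of other HIF targets 2 of 31, and the other 4 lists had none. Over all genes 0.218% passed in that fit. Eno2, the neuronal form of enolase, rose by 0.82 (adjusted p = 0.0395). Stc2, a secreted glycoprotein, rose by 0.72 (adjusted p = 0.0415) and Ddit4, an inhibitor of mTORC1, by 0.52 (adjusted p = 0.0415).

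Eno2 was 7.69, 7.90 and 7.35 in KO rotenone cells and 6.67, 7.06 and 6.57 in KO vehicle cells, and in WT cells 7.58, 7.87 and 7.17 with rotenone and 6.74, 6.82 and 6.77 with vehicle. Ddit4 was 10.97, 10.92 and 10.66 in KO rotenone cells and 10.33, 10.28 and 10.23 in KO vehicle cells, and in WT cells 10.92, 11.09 and 10.66 with rotenone and 10.54, 10.43 and 10.26 with vehicle. Stc2 was 8.20, 7.81 and 8.06 in KO rotenone cells and 7.22, 6.94 and 7.33 in KO vehicle cells, and in WT cells 8.51, 8.36 and 7.98 with rotenone and 7.86, 7.86 and 7.40 with vehicle. For each of the 3 genes the rotenone arrays lay above the vehicle arrays within a genotype, as for 0.871% of all genes. They were named because they had passed for rotenone in these arrays, so this separation is no further evidence. The KO rotenone array numbered 2 of Stc2 lay below 2 of the WT vehicle arrays.

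With the block, other HIF targets had 6 of 31 higher and 1 lower, and glucose metabolism had 3 of 23 higher. In that fit 2.47% of all genes passed, 1.53% as higher. Bhlhe40, a transcriptional repressor, rose by 0.88 (adjusted p = 1.53e-05), Rora, a nuclear receptor, by 0.55 (1.95e-04) and Hmox1, haem oxygenase 1, by 0.54 (3.42e-04). The 1 lower gene was Angptl4, an inhibitor of lipoprotein lipase, at −0.46 (adjusted p = 0.00293), and Nfil3, a transcriptional repressor, rose by 0.67 (0.0316). Both were named after their values were seen. In number 3 Nfil3 did not rise, at 8.86 with rotenone and 8.92 with vehicle in KO cells and 9.06 and 9.09 in WT cells. Its rotenone effect differed between number 3 and numbers 1 and 2 by −1.06 with the block (adjusted p = 0.00301). The glucose transporter Slc2a1 rose by 0.53 (adjusted p = 5.26e-04) and hexokinase 2, Hk2, by 0.55 (0.00493). None of 17 HIF subunits and regulators, 8 prolyl and lysyl hydroxylases and their partners, 14 ligands and receptors of the VEGF and adrenomedullin families or 12 genes of the jumonji list, which also holds the flavin-dependent demethylase Kdm1a, passed. Without number 3 and with the block, HIF subunits and regulators had 2 higher and 1 lower, other targets 10 higher and 2 lower, the VEGF and adrenomedullin list 1 higher, and glucose metabolism again 3 higher, where 4.74% of all genes passed, 2.81% as higher. The list medians for rotenone were 0.11 for other HIF targets and for glucose metabolism, 0.07 for the VEGF and adrenomedullin list, 0.04 for subunits and regulators, −0.01 for the jumonji list and −0.04 for the hydroxylase list, beside 0.03 for all genes.

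**Figure D5:**
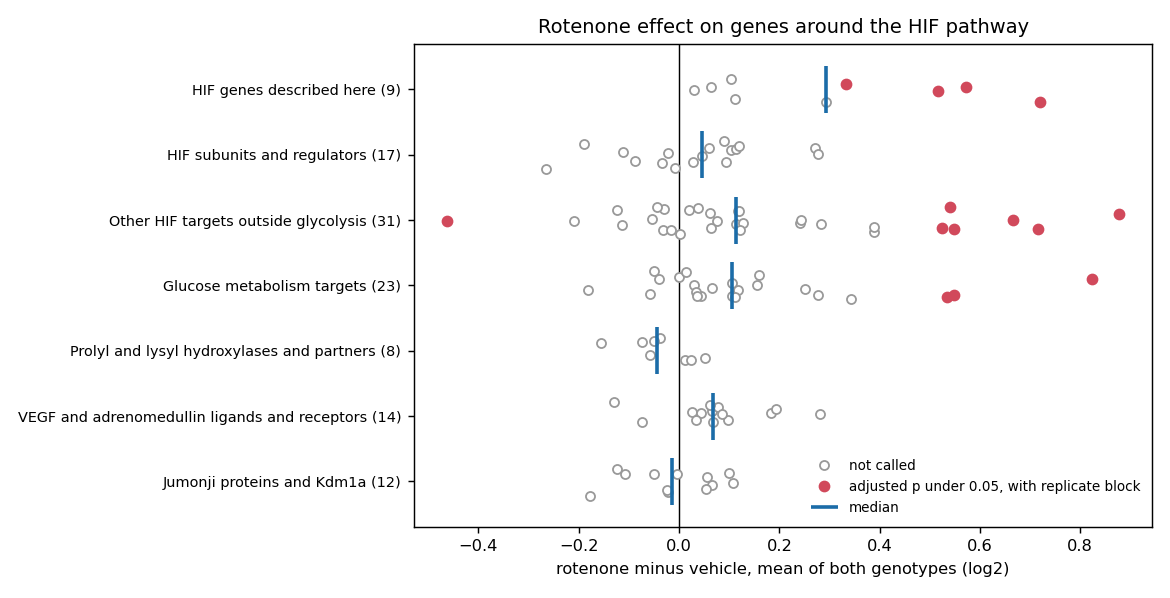
Mean rotenone effect over both genotypes (log2) for the 9 HIF genes and for the measured genes of 6 surrounding lists, with the number of genes in brackets. Red points had an adjusted p under 0.05 with the replicate number as a block, open grey points did not, and blue bars are medians. Red points occur among the 9 HIF genes (4), other HIF targets (6 higher, 1 lower) and glucose metabolism (3), and nowhere else.

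By replicate number, glucose metabolism had 12 of 23 genes higher in number 3 and 1 lower, and other HIF targets had 11 of 31 higher and 9 lower, where 12.7% of all genes were higher and 10.2% lower. The jumonji list had 4 of 12 higher and 0 lower, the VEGF and adrenomedullin list 2 of 14 higher and 3 lower, HIF subunits and regulators 0 of 17 higher and 2 lower, and none of the 8 genes of the hydroxylase list passed. The lactate exporter Slc16a3 was higher by 1.55 (adjusted p = 1.27e-07), Ldha, which makes lactate, by 0.38 (7.22e-04) and Pdk1, which inhibits pyruvate dehydrogenase, by 0.38 (0.00202). Sap30, a subunit of a histone deacetylase complex, was higher by 1.35 (adjusted p = 6.20e-06) and the transferrin receptor Tfrc by 0.84 (3.11e-06). Hmox1 and Bhlhe40, which rose with rotenone, were lower in number 3 by −0.86 (adjusted p = 6.09e-07) and −0.76 (5.58e-06). Vegfa shared that combination of a rise with rotenone and a lower level in number 3. Other members of the VEGF family went both ways, with Vegfc higher by 0.53 (adjusted p = 3.19e-04) and Vegfd lower by −0.63 (1.08e-04).

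The genes whose levels ran most like each HIF gene were ranked by Pearson's r over the 12 arrays, with r over the 8 arrays of numbers 1 and 2 beside it, because number 3 sets arrays apart and can carry a correlation by itself. Vegfa ran closest to Eea1 (0.983 over 12, 0.949 over 8), Kdm3a to Dipk2a (0.960, 0.955), Adm to Cxcl5 (0.986, 0.926) and Hif1a to Cpne1 (0.948, 0.872). Bnip3 and Egln3 shared Pdk1 as the closest gene, with 0.939 and 0.952 over 12 arrays but 0.635 and 0.556 over 8. Egln1 ran closest to Pgm1 (0.978, 0.708). Among the HIF genes themselves, Vegfa and Kdm3a correlated at 0.169 over 12 arrays and at 0.945 over 8, and Bnip3 and Egln3 at 0.919 over 12 and 0.570 over 8. These values describe arrays that share treatment and number, and no test was made of them.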

How the data were processed

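Gene expression was measured on 12 Affymetrix arrays, 3 in each of 4 groups. The authors deposited log2 values computed by RMA, according to the tool list in the labels, per the submitters' processing notes. Neither a version nor settings of RMA is given in the sources used here. RMA draws the arrays' distributions together, so a change shared by most transcripts would not show. No detection calls were used, so signal over background is unknown and precision is limited by the number of arrays.

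Probe sets were named through the platform annotation, and 64 array controls were left out of the 22690 in the file. The probe set with the highest mean stood for each gene. Differences were tested two-sided with limma 3.58.1 (lmFit and eBayes, R 4.3.3), fitting 4 group means at once, with Benjamini-Hochberg adjustment over all 22626 probe sets and a threshold of 0.05. Counts over all genes are of the 12393 representatives. The replicate number against groups was fitted with the group in the model. The fit was tested on simulated data.

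The pairing by replicate number was checked in the data, since the labels do not state it. Deviations from the group means correlated in all 18 same-numbered pairs of arrays (r 0.289 to 0.829). Of 12 arrays, 11 correlated best with an array of their own number. Number 1 with number 2 of other groups gave −0.0535 to 0.476, overlapping the 0.289 to 0.554 of same-numbered pairs of numbers 1 and 2. The shift of number 3 by itself raises same-numbered correlations, so the check does not settle the pairing. Alternatives were the replicate block, quantile normalization, leaving out dim probe sets (40th percentile of mean level), the mean of a gene's probe sets, and leaving out arrays or numbers. Omitting number 3 without the block, omitting single arrays with it, and both contrasts of effects by number were added after seeing the data.

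The genes, lists and tests were chosen with earlier results of these data known. The genes named are all members, Htra2, some cell type markers and a part of the genes eligible by rule. Eligible were list genes called in a comparison (at most 5 a list by smallest p) and the 3 most correlated genes of each member.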

Additional observations from a re-analysis of the deposited data

How the results depend on the processing

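Counts below are of the 9 HIF genes with an adjusted p under 0.05 in limma. With the replicate block (pairing by number), the count for the mean rotenone effect was 4 in place of 0, and for rotenone in WT cells 2 in place of 0, while it was 0 in both fits for rotenone in KO cells, for KO against WT in either treatment and for the interaction. Over all genes the block raised the count for the mean rotenone effect to 306, against 27 without it, for rotenone in WT cells to 87, against 1, and for rotenone in KO cells to 41, against 1. It raised the count for KO against WT to 3, against 1, in vehicle and to 7, against 1, in rotenone. For the rotenone effect by number the counts were 15 with the block and 2 without, and for the genotype effect by number 325 and 96.

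Leaving out arrays or whole numbers, with or without the block, gave 0 to 4 for the mean rotenone effect, 0 to 3 for rotenone in WT cells, 0 to 1 for rotenone in KO cells, and 0 to 1 for KO against WT in vehicle and in rotenone. Over all genes, leaving out 1 array with the block gave 140 to 445 for the mean rotenone effect. It gave 8 to 136 for rotenone in WT cells and 8 to 85 in KO cells. Omitting number 3 alone, without the block, gave 3 for the mean rotenone effect (Vegfa, Kdm3a and Bnip3) and 1 for KO against WT in each treatment (Adm). With the block and without number 3, rotenone called 3 genes in WT cells and 1 in KO cells (Vegfa). The genotype effect by number counted 1 (Adm) with the block and with the mean of probe sets, in place of 0, and 0 to 1 when single arrays were left out. The count for number 3 against the others stayed at 7 to 8 when single arrays were left out. Quantile normalization and leaving out dim probe sets changed none of these counts of HIF genes. The mean rotenone effects of Bnip3, Kdm3a, Vegfa and Hif1a kept their sign under every alternative run. Why the counts move was not tested, beyond the smaller number of arrays in the fits that omit some.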
